A study of Mus musculus with 4 samples.

Results

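The 10 genes described here mark surface ectoderm and epithelia: the keratins Krt5, Krt8, Krt14 and Krt18, the adhesion molecules Epcam and Cdh1, the transcription factors Grhl2, Grhl3 and Tfap2a, and the splicing regulator Esrp1. They were chosen by name, and all 10 were found among 22367 annotated protein-coding genes, Tfap2a under its older symbol Tcfap2a. For each gene, ATAC-seq summits (the position of the strongest signal in a called peak) were taken within 1 kb of an annotated transcript start and within 50 kb of the gene body. ATAC-seq uses the Tn5 transposase, which inserts sequencing adaptors where chromatin is open. Cells of forelimb and hindlimb were taken from mouse embryos of the strain c57bl6.J X 129S6.sv at E11.5 and fixed before transposition. The mutant embryos carried a stop cassette insertion, a sequence that ends transcription early, and the other embryos were wild type. There were 2 libraries per genotype, each with its own peak list of 51701 to 107827 summits; the stop cassette lists were the longest and the second longest. The labels give neither the zygosity nor the position of the cassette, nor whether embryos were pooled. The study's title names the Maenli lncRNA and engrailed-1 (En1), which is known to act in limb ectoderm. The labels number both wild-type libraries separately, but the peak names give these 2 libraries a common number with a suffix, so p-values may measure technical spread only.

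The limb bud is mostly mesenchyme, wrapped in a thin surface ectoderm that signals to it. The early, single-layered ectoderm makes the simple keratins Krt8 and Krt18. As the skin stratifies, basal cells turn to Krt5 and Krt14. Grainyhead-like factors (Grhl2, Grhl3) and Tfap2a act upstream of many epithelial genes, among them Cdh1 and Epcam, and Esrp1 keeps transcripts in their epithelial splice form. In such whole-limb preparations, fewer ectoderm cells and less accessible chromatin per ectoderm cell cannot be told apart.

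The transcript starts of these genes differ in sequence. CG dinucleotides are shown in capitals in the 250 bases before the first annotated start of 3 genes, read from the NCBIM37 (mm9) genome, 5′ to 3′ on the strand of the gene. They were picked after the values were seen, to set starts without a summit in any list (Krt5, Krt14) beside a start with one in all 4 lists (Krt18).
Krt5, chr15:101543323-101543572, minus strand: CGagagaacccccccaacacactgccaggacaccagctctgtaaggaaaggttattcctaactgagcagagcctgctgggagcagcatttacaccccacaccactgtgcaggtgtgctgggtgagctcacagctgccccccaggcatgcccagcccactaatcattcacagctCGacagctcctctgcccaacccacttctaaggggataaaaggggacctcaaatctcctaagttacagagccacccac
Krt14, chr11:100068863-100069112, minus strand: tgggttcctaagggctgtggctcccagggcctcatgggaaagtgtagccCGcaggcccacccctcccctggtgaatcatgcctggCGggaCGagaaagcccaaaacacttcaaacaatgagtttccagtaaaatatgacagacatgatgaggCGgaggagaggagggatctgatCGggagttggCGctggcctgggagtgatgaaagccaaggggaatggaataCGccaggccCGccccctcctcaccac
Krt18, chr15:101858397-101858646, plus strand: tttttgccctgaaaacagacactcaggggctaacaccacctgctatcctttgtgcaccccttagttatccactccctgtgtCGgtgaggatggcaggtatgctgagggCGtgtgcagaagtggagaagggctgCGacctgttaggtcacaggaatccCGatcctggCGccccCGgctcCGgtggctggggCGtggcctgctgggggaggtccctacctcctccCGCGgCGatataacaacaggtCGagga
Krt5 has 2 CG dinucleotides here, Krt14 has 8 and Krt18 has 12, against a median of 8 over 22367 protein-coding genes. None of the 10 genes has the letters TATAAA on its own strand in this window, which 8.35% of protein-coding genes hold.

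Accessible chromatin away from untranslated sequence was also found near these genes. The next 4 stretches of 300 bases are centred on the summit of wild-type replicate 2 in the strongest region that was shared by all 4 lists and free of UTR sequence, for Epcam, Krt8, Krt18 and Grhl3. They are ordered by mean score percentile and are shown because they are strong regions away from annotated starts. Starts missing from the annotation were not examined. Scores are ranked within a list from 0 (weakest peak) to 100 (strongest). Capitals again mark CG dinucleotides.
Epcam, upstream, chr17:88012679-88012978, plus strand: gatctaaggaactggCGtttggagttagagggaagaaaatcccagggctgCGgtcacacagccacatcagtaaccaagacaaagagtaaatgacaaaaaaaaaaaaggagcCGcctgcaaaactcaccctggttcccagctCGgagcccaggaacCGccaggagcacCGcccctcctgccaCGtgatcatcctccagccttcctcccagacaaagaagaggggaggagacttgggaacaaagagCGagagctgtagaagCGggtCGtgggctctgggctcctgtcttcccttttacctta
Krt8, downstream, chr15:101807846-101808145, plus strand: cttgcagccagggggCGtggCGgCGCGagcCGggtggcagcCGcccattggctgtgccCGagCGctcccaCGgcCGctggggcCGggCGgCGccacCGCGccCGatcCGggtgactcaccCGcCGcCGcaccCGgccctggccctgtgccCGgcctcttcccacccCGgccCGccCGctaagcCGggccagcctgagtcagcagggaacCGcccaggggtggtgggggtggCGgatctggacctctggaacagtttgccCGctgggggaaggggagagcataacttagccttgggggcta
Krt18, beyond the 3′ end of Krt8, chr15:101814695-101814994, plus strand: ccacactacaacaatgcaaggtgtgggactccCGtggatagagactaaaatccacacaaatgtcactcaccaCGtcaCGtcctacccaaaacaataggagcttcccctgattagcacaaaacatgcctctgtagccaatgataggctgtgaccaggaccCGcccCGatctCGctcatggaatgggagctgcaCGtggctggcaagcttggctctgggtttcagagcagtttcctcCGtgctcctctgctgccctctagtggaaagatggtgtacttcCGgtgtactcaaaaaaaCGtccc
Grhl3, upstream, chr4:135179383-135179682, plus strand: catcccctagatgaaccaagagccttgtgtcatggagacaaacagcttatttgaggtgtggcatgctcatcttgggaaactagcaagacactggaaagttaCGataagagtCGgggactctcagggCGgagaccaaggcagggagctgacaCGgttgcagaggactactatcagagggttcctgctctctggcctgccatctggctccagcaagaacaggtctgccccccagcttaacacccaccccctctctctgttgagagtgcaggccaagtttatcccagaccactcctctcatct
The Epcam region (mean percentile 91.9) was intergenic and lay at -22490 bp from the Epcam start, where minus is upstream. The region taken for Krt8 (85.3) was intergenic, nearest to the start of Krt78, and its 300 bases are 75% G and C with 29 CG dinucleotides. The region taken for Krt18 (84.3) lies beyond the 3′ end of Krt8, 19894 bp downstream of the Krt8 start, and is within 50 kb of both genes. The Grhl3 region (80.8) is intergenic and nearest to the start of 1700029M20Rik, at -3047 bp from it. It is at the edge of the Grhl3 window, with its wild-type replicate 2 summit at -50 kb from the Grhl3 start. No match to AACCNGTT (the core bound by Grainyhead-like factors, either strand) or GCCNNNGGC (the palindrome bound by TFAP2 factors) is in these 4 stretches. That says only that these letters are not in these windows.

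At transcript starts, 3 of the 10 genes had a summit in all 4 lists (Krt18, Epcam and Cdh1), 4 had one in 1 to 3 lists (Krt8, Grhl2, Esrp1 and Tfap2a) and 3 had none (Krt5, Krt14 and Grhl3). Of all protein-coding genes, 57.5% had a start summit in all 4 lists, 7.99% in 1 to 3 lists and 34.5% in none. With each list reduced to its 51701 strongest peaks (equal list length), 2 of the 10 genes had one in all 4 lists (Krt18 and Epcam) and 5 in none, against 54.7% and 37.3% of protein-coding genes, and 3 in 1 to 3 lists, against 8%. Of the 40 combinations of gene and list, 20 had a start summit, and its percentile lay between 1.96 and 80.6. In all 20, it was below the median over protein-coding genes with a start summit in the same list, which was 90, 92.6, 85.5 and 88.6 in stop cassette replicates 1 and 2 and wild-type replicates 1 and 2. A low rank was not particular to the 10 genes. The called genes of the limb mesenchyme list described below had medians of 54.8, 76.2, 63.4 and 64.6 in the same order.

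Krt18, a type I keratin of simple epithelia, lies on chromosome 15 from 101858647 to 101862457 (plus strand, ENSMUSG00000023043.6). In stop cassette replicates 1 and 2 its strongest start summit had percentiles of 77.5 and 60.5. In wild-type replicates 1 and 2 it had 25.5 and 60.9. All 4 summits lay 12 to 33 bp upstream of the annotated start. Wild-type replicate 1 was the lowest, and stop cassette replicate 2 and wild-type replicate 2 were nearly level.

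Krt8, the type II partner of Krt18, lies beside it on the minus strand (101827142 to 101834773, ENSMUSG00000049382.9). Within 1 kb of its start, only stop cassette replicate 2 (67.6 percentile) and wild-type replicate 1 (11.3) had a summit, 901 and 943 bp downstream. The summits of the other two lists lay just beyond the limit, 1306 and 1010 bp from the start. All 4 belonged to one region over the first part of the gene (101833217 to 101834122, intronic), with percentiles of 10.4 and 79.1 with the stop cassette and 26.6 and 67.2 in wild type. At this region the replicates of each genotype lay further apart than the genotypes. Sequence at Krt8 and Krt18 is partly repeated elsewhere in the genome. Of the words of 32 bases in the 1 kb around the start, 70.2% at Krt8 and 81.4% at Krt18 occur once in mm9, against 88.9% to 100% at the other 8 genes. The part of repeated sequence in the Krt8 and Krt18 values was not tested.

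Krt5 (chromosome 15, 101537501 to 101543322, ENSMUSG00000061527.5) and Krt14 (chromosome 11, 100064476 to 100068862, ENSMUSG00000045545.8), the keratin pair of basal epidermis, had no start summit in any list. Around Krt5 there was no summit at all within 50 kb. The nearest one lay 59336 to 60045 bp from its start in the 4 lists. The other 9 genes had a summit in the window in at least 1 list, as did 88.5% of protein-coding genes. Words that occur once make up 86% of the Krt5 window. Krt14 had 4 and 3 summits in its window in the stop cassette lists, and 0 and 3 in the wild-type lists. One of them, in wild-type replicate 2 alone, lay inside the gene over a coding exon, 2401 bp downstream of the nearer of its 2 annotated starts (50.7 percentile).

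**Figure D1:**
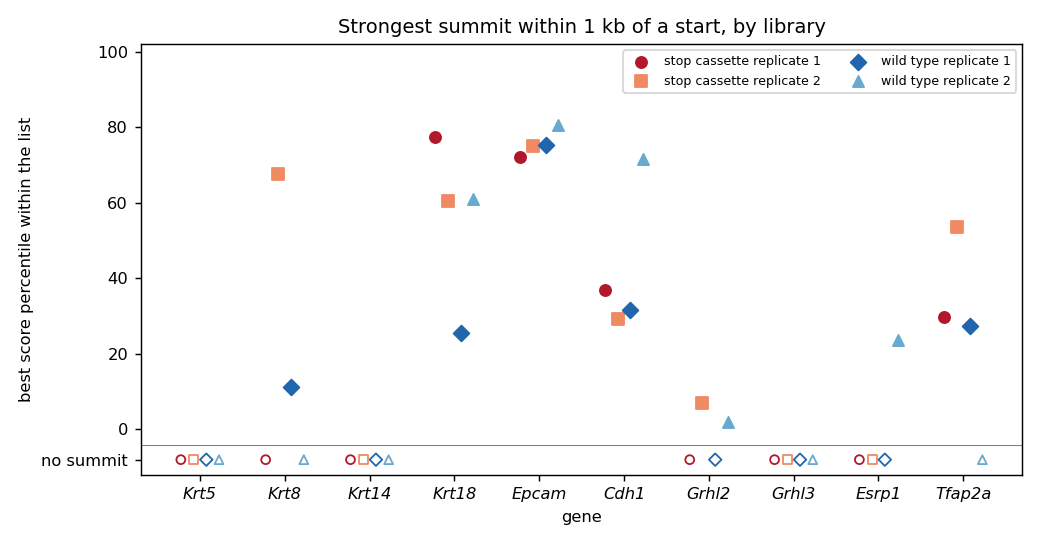
Score percentile (0 to 100, within each list) of the strongest summit within 1 kb of a start, for 10 genes and 4 libraries; open symbols mark libraries with no such summit. Epcam sits between 72 and 80.6 in all libraries, whereas Krt5, Krt14 and Grhl3 have no summit in any.

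Epcam encodes an epithelial adhesion molecule (chromosome 17, 88035319 to 88050446, plus strand, ENSMUSG00000045394.8). Its start summit had the narrowest spread of the 10 genes among those called in all 4 lists, at 72 and 74.9 in the stop cassette lists and 75.2 and 80.6 in the wild-type lists. The strongest summit was not at the start itself but 732 to 766 bp downstream. Stop cassette replicate 2 alone had an additional weaker region at the start (29.1 percentile, 88034950 to 88035615). The upstream region shown above (88012145 to 88013695) ranked higher than the start in every list, at 88.9, 96.7, 84.3 and 97.8.

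Cdh1 encodes E-cadherin, the adhesion protein of epithelial cell junctions (chromosome 8, 109127251 to 109194146, plus strand, ENSMUSG00000000303.6). Its start summit had percentiles of 36.8 and 29.3 in the mutant libraries and 31.7 and 71.6 in the wild-type ones. Wild-type replicate 2 stood apart from the other 3. Within the gene and 50 kb on each side, only 2 regions were held by all 4 lists: the Cdh1 start and the start of the neighbour Tmco7, which ranked at 96.7, 98.9, 95.8 and 90.5. No region away from a start was held by all 4 lists.

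Tfap2a encodes a transcription factor of ectoderm and neural crest (chromosome 13, 40811044 to 40829192, minus strand, ENSMUSG00000021359.8). A start summit ranked at 53.7 in stop cassette replicate 2 and 27.4 in wild-type replicate 1, with none in wild-type replicate 2. The strongest in stop cassette replicate 1, at 29.8, belonged to a second annotated start inside the gene, and its summit near the first start ranked at 2.73. A region inside the gene was much stronger and held by all 4 lists. It spanned a coding exon from 40817726 to 40819002 and ranked at 96.6 and 92.5 in the stop cassette lists and 90.2 and 85.6 in the wild-type lists. Since these percentiles come from lists of different lengths, their order cannot show whether the genotypes differ.

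Grhl2 and Grhl3 encode Grainyhead-like factors of epithelial barrier formation. Grhl2 (chromosome 15, 37162791 to 37293324, plus strand, ENSMUSG00000022286.9) had start summits of very low rank in both replicate 2 lists only, at 6.87 in stop cassette and 1.96 in wild type. The first lay 476 bp from an annotated start inside the gene and the second 876 bp downstream of the second of its annotated starts, so these are different sites. The second was also within 1 kb of a start of another gene. It belonged to an intronic region near the first start (37163439 to 37164556) that only wild-type replicate 1 lacked. That region ranked at 15.7 and 26.6 in stop cassette replicates 1 and 2. Their summits lay just beyond the limit, 1.51 and 1.42 kb downstream of the first start. Its window was sparse, with 1 and 8 summits in the stop cassette lists and 1 and 2 in the wild-type lists, and no region of it was held by all 4 lists. Grhl3 (chromosome 4, 135097803 to 135129545, minus strand, ENSMUSG00000037188.7) had no start summit. An intronic region 3403 bp downstream of its start (135125865 to 135127104) ranked at 79.1 and 75.4 in the stop cassette lists and 59.2 in wild-type replicate 2, and was absent from wild-type replicate 1. Esrp1 (chromosome 4, 11259080 to 11313930, minus strand, ENSMUSG00000040728.9), which regulates splicing in epithelia, had 1 start summit, at 23.6 in wild-type replicate 2. Of its 8 regions, 7 were held by 1 list only, and the remaining one was the start of the neighbour Dpy19l4.

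**Figure D2:**
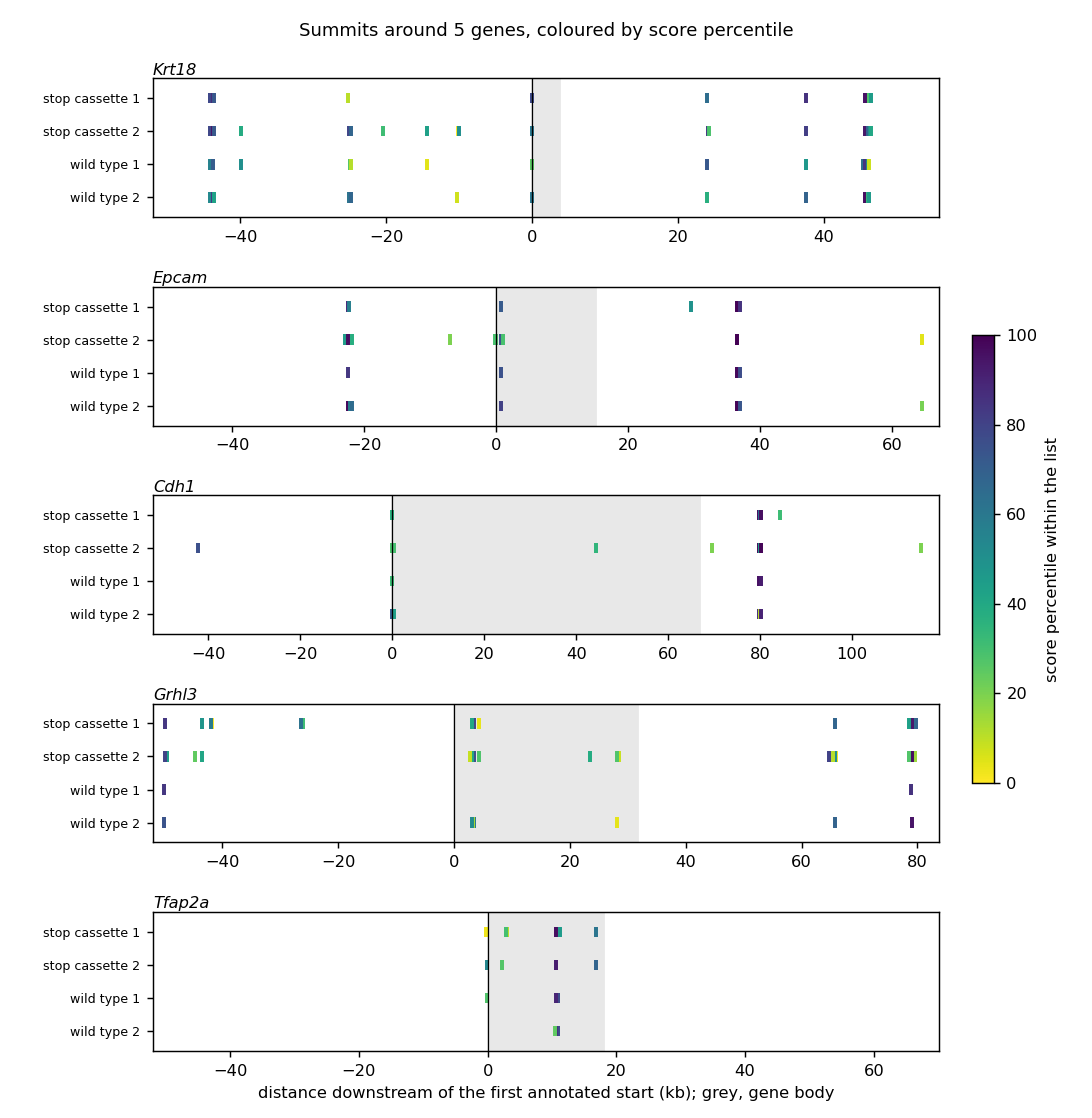
Summits of the 4 libraries (rows) by distance from the first annotated start in kb, with the gene body in grey and colour giving the score percentile within the list. Krt18, Epcam and Cdh1 have a summit within 1 kb of the start in every row, Tfap2a has its darkest marks inside the gene, and Grhl3 has none at the start.

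To ask whether chromatin near these genes differed when the cassette was present, libraries were compared by genotype. A start summit was held by 4 and 6 of the 10 genes in the stop cassette lists and by 5 and 5 in the wild-type lists, against 61.5%, 64.5%, 59.1% and 61.6% of protein-coding genes in the same order. The means were 5 ± 1.41 and 5 ± 0 genes (SD, n = 2 each; exact permutation p = 1, two-sided). With 2 against 2 libraries this test cannot give a p below 0.333. For the 3 genes called in all lists, the mean start percentile had a group mean of 58.5 ± 5.1 for stop cassette libraries and 57.6 ± 19 for wild-type libraries (SD over 2 libraries; exact permutation p = 1). Its difference of 0.901 was smaller than the spread between replicates, and it turned to -8.84 at equal list length, over the 2 genes called throughout. None of the 10 genes had a start summit in both lists of one genotype and neither list of the other. Of all protein-coding genes, 1.03% had one in both stop cassette lists only and 0.0537% in both wild-type lists only.

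Within 50 kb of the 10 genes, with shared windows counted once, there were 61 and 79 summits in the stop cassette lists and 32 and 45 in the wild-type lists. The means were 70 ± 12.7 and 38.5 ± 9.19 summits (SD, n = 2 each; exact permutation p = 0.333, the smallest possible), and the groups did not overlap. As a share of the list these are 0.0771% (95% Wilson interval 0.0601% to 0.0991%) and 0.0733% (0.0588% to 0.0913%) in stop cassette replicates 1 and 2. In wild-type replicates 1 and 2 they are 0.0619% (0.0438% to 0.0874%) and 0.0657% (0.0491% to 0.0879%). As shares, too, the groups did not overlap. The difference of their means was 0.0114 percentage points (exact permutation p = 0.333, again the smallest possible). The intervals cover counting error only, treating summits as independent, and all 4 overlap. At equal list length, the counts were 43 and 27 for stop cassette libraries and 32 and 34 for wild-type libraries (exact permutation p = 1), so that the wild-type values lay between the stop cassette values.

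By gene, both stop cassette counts exceeded both wild-type counts for 3 of the 10 genes, Krt8, Grhl3 and Esrp1, and the reverse held for none. Among protein-coding genes, 46.9% had both stop cassette counts above both wild-type counts and 1.04% the reverse. Grhl3 had the widest gap, with 15 and 19 summits against 2 and 7 (exact permutation p = 0.333, Benjamini-Hochberg adjusted over the 10 genes 0.952). At equal list length its counts were 11 and 4 against 2 and 5, and the genotypes overlapped. Krt8 had 12 and 17 against 11 and 11, and Esrp1 had 8 and 4 against 2 and 3. At equal length, no gene had both stop cassette counts above both wild-type counts, where 12.2% of protein-coding genes did. Krt18 alone had the reverse, at 9 and 10 against 13 and 11, where 9.24% of protein-coding genes did.

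**Figure D3:**
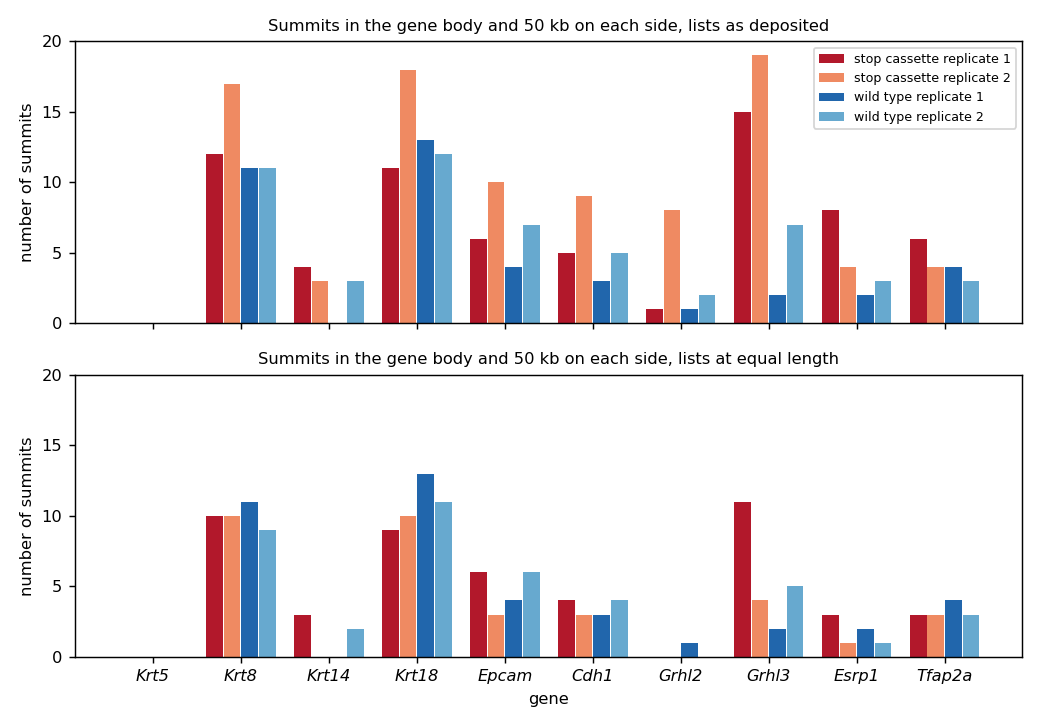
Number of summits in each gene body and 50 kb on each side for the 4 libraries, with lists as deposited (top) and reduced to equal length (bottom); Krt8 and Krt18 share most of their windows. Grhl3 falls from 15 and 19 summits with the stop cassette to 11 and 4 at equal length, and Krt5 is empty throughout.

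When summits were extended by 250 bp on each side and merged over the 4 lists, the windows held 62 regions. Of these, 18 (29%) were held by all 4 lists and 29 (46.8%) by 1 list only, against 32% and 35.4% of all regions of the genome. Stop cassette replicate 2, the longest list, alone held 18 of the 29. Only 13 regions had their strongest summit within 1 kb of any annotated start, and 8 of these were nearest to a start of the 10 genes. Away from starts lay 49 regions, 10 of them held by all 4 lists. The Krt8 and Krt18 pair, whose windows overlap, was the densest neighbourhood of the 10 genes per length, with 11 regions near Krt8, 7 of them in all 4 lists, and 10 near Krt18, 6 of them in all 4 lists. Averaged over the libraries, Krt18 had 13 summits per 100 kb, at the 88.6 percentile of protein-coding genes, and Krt8 had 11.8, at the 85.5 percentile. Grhl2 had 1.3, at the 18.7 percentile. The strongest regions near Krt18, Cdh1, Grhl3 and Esrp1 were starts of the neighbouring genes Eif4b, Tmco7, Nipal3 and Dpy19l4.

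Of the 62 regions, 3 (4.84%) were in both mutant lists and absent from both wild-type ones, and none had the reverse pattern, against 10% and 0.313% of all regions. The first was over the 3′ part of Tfap2a (chromosome 13, 40812121 to 40812628, in a UTR), at the 61.3 and 68.1 percentiles. It kept its pattern at equal list length, where 5.22% of all regions have it and 2.23% the reverse, which none of the regions near the 10 genes had. The others were near Grhl3, one intronic 4311 bp downstream of the start (chromosome 4, 135124984 to 135125498, at 3.76 and 27.8) and one intergenic (135172796 to 135173305, at 47.7 and 41.1). Neither kept the pattern at equal list length.

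A wider list of 52 other epithelial genes held junction, desmosome and keratin genes, transcription factors and ectodermal signals of the limb. All 4 lists had a start summit for 19 of them (36.5%), 1 to 3 lists for 21 and no list for 12. By library, 30 and 38 had a start summit in the stop cassette lists and 19 and 26 in the wild-type lists (34 ± 5.66 and 22.5 ± 4.95, SD, n = 2 each; exact permutation p = 0.333). At equal list length the counts were 20, 22, 19 and 21, a difference of 1 gene between the means. The strongest starts held by all 4 lists included those of the transcription factor genes Klf5 (98.8 to 99.9 over the lists) and Grhl1 (97.8 to 99.5) and of Jup, the plakoglobin gene (92.6 to 99.1). Tight-junction genes varied. Cgn (94 to 97) and Lsr (77.2 to 92.7) had start summits of high rank in all 4 lists, and Marveld2 ranged from 36.2 to 87.4. These 6 genes were chosen after their values were seen. Of the other tight-junction genes, also named after their values were seen, Ocln ranked lower in all 4 lists (9.82 to 49.6). Tjp3 had no start summit in any list. Claudin genes had start summits of lower rank, in fewer lists or in none: Cldn3 (16.7 and 40.3, stop cassette lists only), Cldn4 (39.7 in stop cassette replicate 2) and Cldn7 (47.8, 6.87 and 3.31, absent from wild-type replicate 1). Cldn6 had no start summit in any list. P-cadherin (Cdh3), Fgf8, the apical ridge growth factor, and Krt19 each had one in stop cassette replicate 2 alone, at 42, 30.1 and 5.04. Esrp2, the paralogue of Esrp1, had one at 59.1 and 65.3 in the stop cassette lists and 15.8 in wild-type replicate 2. Of the 52 genes, 4 (7.69%) were called in both stop cassette lists only, against 1.03% of protein-coding genes. They were Cldn3, Itgb4 (7.55 and 34.7), Pkp3 (0.451 and 4.32) and Wnt7a (1.71 and 54.5), the last a dorsal ectoderm signal. Pkp3 and Wnt7a are named after their values were seen. At equal length 1 of the 52 genes had this pattern and 1 had the reverse, where 0.389% and 0.496% of protein-coding genes do.

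The other marker lists place these counts. The limb mesenchyme list, the labelled tissue's main cell type, had start summits in all 4 lists for 19 of 22 genes. Tbx5 had none and Prrx2 and Tbx4 lacked one in wild-type replicate 1. Late epidermis, which forms after this stage, had none in all 4 lists for its 12 genes, and Tgm1 was called in both stop cassette lists only (26.4 and 44.7). Tbx5 and Tgm1 are named after their values were seen. Liver genes, outside the limb, had 1 of 12 (Apoh). Endothelial genes had 4 of 12, blood genes 6 of 12 and muscle precursor genes 2 of 8. Among those called in 1 to 3 lists, Tek and Sox17 (endothelium) and Myf5 (muscle) had a start summit in stop cassette replicate 2 alone. Sox18 (endothelium) and Pax3 and Lbx1 (muscle) had one in both stop cassette lists only. Cldn5 (endothelium) was called in both replicate 2 lists, Klf1 (blood) in all but wild-type replicate 2, and Myod1 (muscle) in all but stop cassette replicate 1. The median start percentile of the called blood genes was 87.1 and 84.6 in the stop cassette lists and 51.5 and 73.7 in the wild-type lists. Summits were called at 7, 7, 7 and 6 of the 12 blood genes. For the other epithelial genes the medians were 53.4 and 55.5, and 71.3 and 66.4. Each median is over the genes called in that list, which for the other epithelial genes were 30, 38, 19 and 26. Percentiles from lists of different lengths cannot show whether the genotypes differ, and the part of blood cells in the values above was not tested. The 10 ectoderm genes lay between the mesenchyme list and the liver and late epidermis lists in their share of start summits in all 4 lists. The other epithelial (36.5%), endothelial (33.3%), blood (50%) and muscle precursor (25%) lists lay in the same range. This position was therefore not particular to the 10 genes.

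**Figure D4:**
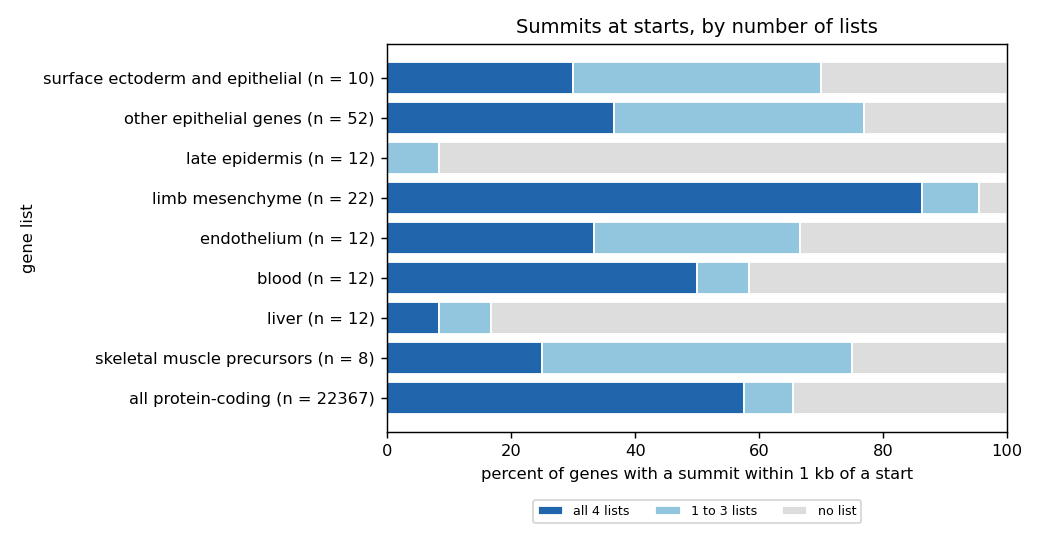
Percent of the genes of each list with a summit within 1 kb of a start in all 4 lists, in 1 to 3 lists or in none (stacked bars, n in brackets). The surface ectoderm and epithelial genes stand at 30% in all 4 lists, the limb mesenchyme list at 86.4% and all protein-coding genes at 57.5%.

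Starts were also compared by base composition. A start was called CpG-rich when the 1 kb around it had over 50% G and C and an observed over expected CpG ratio above 0.6. Of protein-coding genes with such a start, 93.0% had a start summit in all 4 lists and 1.75% in none. Of those without, 23.5% had one in all 4 lists and 65.9% in none. Of the 10 ectoderm genes, 3 have a CpG-rich start, against 48.9% of protein-coding genes: Cdh1 (highest ratio 0.734), Grhl2 (0.768) and Tfap2a (1.04). One of these 3, Cdh1, was called in all 4 lists. Of the other 7 genes, 2 (Krt18 and Epcam) were, and Krt5 had the lowest ratio, 0.284. Among the 52 other epithelial genes, 32 have a CpG-rich start, and 15 of those 32 (46.9%) had a start summit in all 4 lists, against 14 of 15 in the mesenchyme list. The share of genes with a CpG-rich start was 68.2% in the mesenchyme list, 8.33% in the liver list and 0% in the late epidermis list. These are counts with no test.

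**Figure D5:**
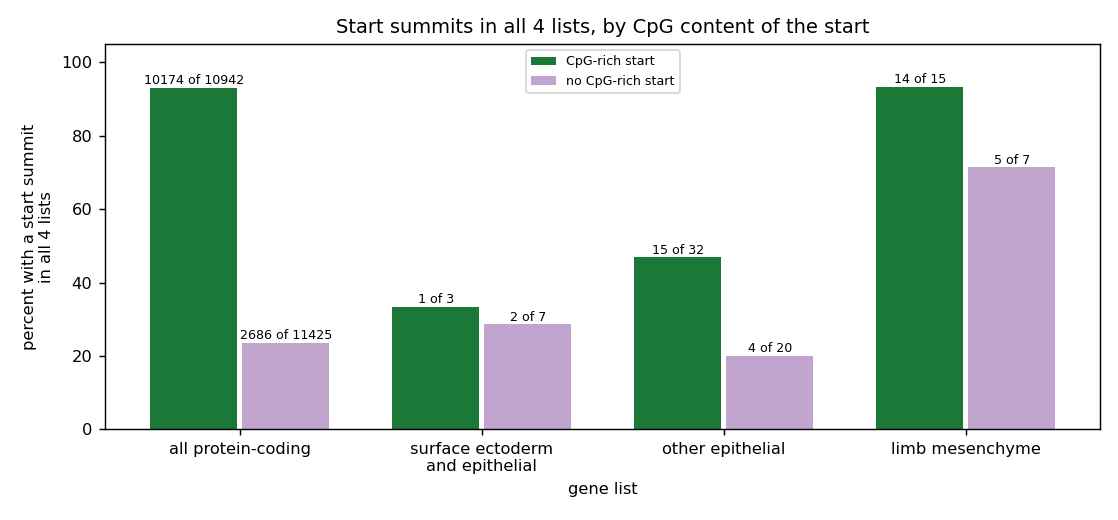
Percent of genes with a start summit in all 4 lists, split by whether the gene has a CpG-rich start, for 4 gene lists (bars from 0, counts above them). For CpG-rich starts the bars stand at 93.0% for all protein-coding genes and 46.9% for the other epithelial genes.

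Motif letters near the summits were counted in windows of 500 bp. AACCGGTT was in none of the windows near the 10 genes. In stop cassette replicate 2 that is 0 of 79 windows, which allows a share of up to 3.8%, while 0.265% of all its summits have it, so a difference was not detectable. AACCNGTT was in 1 of those 79 windows (1.27%, against 3.6% of the whole list) and in none of the 61, 32 and 45 windows of stop cassette replicate 1 and wild-type replicates 1 and 2. In that order, these counts of 0 allow shares of up to 4.92%, 9.38% and 6.67%. The whole lists have 3.41%, 3.12% and 3.24%, so a difference was not detectable in these libraries either. GCCNNNGGC was in 14.8%, 20.3%, 21.9% and 24.4% of the windows of stop cassette replicates 1 and 2 and wild-type replicates 1 and 2, and in 25.6%, 23.3%, 32.3% and 29.6% of their whole lists. Summits in one list can share sequence, and both strands were searched.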

How the data were processed

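ATAC-seq peak lists of 4 libraries were used. Each list gives 1 bp summits with a deposited value per peak, read as −log10 of a q-value because its lowest value corresponds to 0.05, and used only to rank peaks within a list. Bowtie2 2.2.6, Picard and mm9 are named in the submitters' processing notes. Duplicate and mitochondrial reads were removed and a mapping quality of 30 was applied, per the peak names in the deposited files. The peak caller, any Tn5 shift and any control are not given in the sources used here. Depth is unknown. Genes are from GENCODE M1 on NCBIM37, the same build (0 of 21 chromosomes had a summit beyond its end).

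Python 3.11.15, numpy 2.4.6 and scipy 1.17.1 were used. Ties in rank took the middle rank. Group means were compared by exact permutation over libraries, two-sided. The code for start calls was run on simulated lists with summits planted at genes drawn from 22367 and no other peaks. It returned the planted pattern for 200 of 200 genes per pattern. That checks the code and not the accuracy of calls in the real lists. The genes and lists were chosen with earlier results of these data known. All 10 genes are named. Of other lists, genes called in 1 to 3 lists are named, at most 8 in alphabetical order, or those called in all 4 where most have none. Alternatives were equal list length, a score above 5.83 (the pooled median), other distances and extensions, summits at starts of other genes left out, each library left out and replicate numbers as a block. Some sequences and a neighbouring gene are not reported here.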

Additional observations from a re-analysis of the deposited data

How the results depend on the processing

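No result passed a threshold, since 2 libraries per genotype allow no exact permutation p below 0.333. Of the 73 values from alternatives, 55 kept their direction or, for counts, lay within 1.5 times, while 13 moved and 5 reversed. The side of the threshold could not change, and the block values repeat the deposited differences by construction. The tally is therefore no measure of stability. The difference in genes with a start summit, 0 as deposited, was -0.5 at equal list length, 1 with the stricter score, 1.5 with starts taken to 500 bp and 1 to 2 kb, and -1 to 1 with 1 library left out. The difference in mean start percentile reversed to -8.84 at equal length and -1.9 with the stricter score, and ranged from -12.5 (without wild-type replicate 1) to 14.3 (without wild-type replicate 2) with 1 library left out. It was -2.7 without stop cassette replicate 1. These means are not all over the same genes, since only genes called in every list used enter. There were 3 such genes as deposited, 2 at equal length, 1 with the stricter score and 4 without wild-type replicate 2. The share of the list near the 10 genes reversed to -0.00891 percentage points with the stricter score. Regions in both stop cassette lists only, 3 as deposited, were 1 at equal length, 10 with a flank of 100 kb, 7 with an extension of 100 bp, and 4 to 22 with 1 library left out, which raises the count by construction, with 0 to 2 for both wild-type lists only. Replicate numbers as a block gave the same differences (0.901 for the percentile, 31.5 for summits near the genes), where the sign-flip test cannot give a p below 0.5. Same-numbered libraries deviated together at r = 0.181 over 23894 regions, but with 2 pairs they share only a number. What moved these values beyond list length was not tested.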
